A study of Mus musculus with 6 samples.

Results

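The genes described here are 46 factors of chromosomal DNA replication, measured in C2C12 mouse myoblasts in which Parp2 was silenced. They were chosen by name as the machinery that marks, opens and copies replication origins and supplies deoxynucleotides, with earlier results of these data known. All 46 were measured, among 19938 genes that the arrays read through a probe set naming that gene alone. The shPARP2 group holds 3 samples of C2C12 cells transfected with an shRNA against Parp2. The scPARP2 group holds 3 samples of C2C12 cells transfected with a scrambled sequence. C2C12 is a muscle precursor line that divides in serum-rich medium and can differentiate into contractile myotubes. The article that reanalysed these arrays describes C2C12 cultures in serum-containing DMEM, with the shRNA maintained under puromycin. The arrays came from an earlier study, and whether their samples were grown in this way is not stated there. Each group is 1 cell line, so a difference between the shRNAs and a difference between the 2 lines cannot be told apart. Whether the samples within a line came from separate cultures is not stated, and each p-value rests on a spread between arrays that could be technical alone.

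PARP2 is an enzyme that attaches ADP-ribose chains to proteins and is best known from the repair of DNA strand breaks. Before S phase, the origin recognition complex, Cdc6 and Cdt1 load the ring of Mcm2 to Mcm7 onto DNA, a step called licensing. The Cdc7-Dbf4 kinase and cyclin-dependent kinases then fire the origins by bringing Cdc45 and the GINS complex to the ring, which makes the active helicase. Polymerase alpha with primase starts each strand, polymerases delta and epsilon extend it on the sliding clamp Pcna, and ribonucleotide reductase with a few further enzymes makes the precursors. Many of these genes are known targets of E2F transcription factors, which are active in dividing cells and quiet in differentiated muscle.

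The labels were checked on Parp2 itself. Parp2 (probe set 10414497) gave log2 signals of 7.86, 8.14 and 7.91 in shPARP2 cells, against 8.94, 9.13 and 9.05 in scPARP2 cells. The level in shPARP2 cells was 47.6% of that in scPARP2 cells (log2 fold change -1.07, SE 0.099, limma adjusted p = 0.00103). The median log2 signal of an array was 7.04 to 7.18 in shPARP2 cells and 7.11 to 7.15 in scPARP2 cells, and the median log2 fold change of all genes was -0.024. Markers of the myoblast state were present in both lines, since the percentile of signal among all genes was 96.4 for Des, 88.2 for Cdh15 and 81 for Myod1, and it was 50.6 for Pax7. Of the 7 myoblast markers measured 5 were higher in shPARP2 cells, and of 12 markers of differentiating muscle 10 were higher and none lower (71.4% and 83.3% higher, against 12.4% of all genes). The mean log2 signal of the differentiating muscle markers was 10.30 to 10.62 in the shPARP2 samples and 9.44 to 9.60 in the scPARP2 samples, so the lines did not overlap on this list. Of 22 markers of leukocytes, epithelium and endothelium, adipocytes, bone and cartilage, only the macrophage gene Cd68 passed the test (log2 fold change -0.72, adjusted p = 0.00119). Among these 22 the signal percentile was 88.2 for the adipocyte marker Pparg and at most 65.8 (Col2a1) for the others. A bright signal of a single marker therefore does not tell the cell type. The part of these muscle genes in the results below was not tested, and in bulk RNA fewer cells of a type and less RNA per cell cannot be told apart.

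The replication genes did not move together. In shPARP2 cells 10 of the 46 genes rose and 6 fell at an adjusted p under 0.05 (limma, Benjamini-Hochberg over all probe sets), and 30 did not pass. That is 34.8% called, against 24.0% of all genes, with 21.7% higher against 12.4% of all genes and 13% lower against 11.6%. Without probe sets below signal percentile 40, 18 of 43 replication genes were called (41.9%), against 41.5% of 13351 genes. The excess over all genes was thus not seen among the brighter probe sets. The median log2 fold change of the 46 genes was -0.03, with 22 positive and 24 negative signs, and the median size of the change was 0.16, against 0.14 for all genes. Calls of at least 1.5-fold were made for Orc6, Rrm2 and Rrm1 only, all higher, which is 6.52% of the 46 against 10.1% of all genes. In 21 of the 46 genes (45.7%) the 3 shPARP2 values and the 3 scPARP2 values did not overlap, against 42.1% of all genes. The share past the test depended on the arrays used, and the large changes sat in very few genes. The count of higher genes was 5 without any single scPARP2 array, and that of lower genes was 3, 1 and 2 without scPARP2 array 1, 2 and 3 and 3 without shPARP2 array 1. The share called then was 17.4%, 13% and 15.2% without scPARP2 array 1, 2 and 3, against 14.1%, 13.9% and 13.6% of all genes, and 23.9% without shPARP2 array 1, against 18.2%. Orc6, Cdt1, Pola1, Pcna, Rrm1 and Rrm2 passed under all 14 alternative settings tried per gene, single arrays left out among them.

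**Figure D1:**
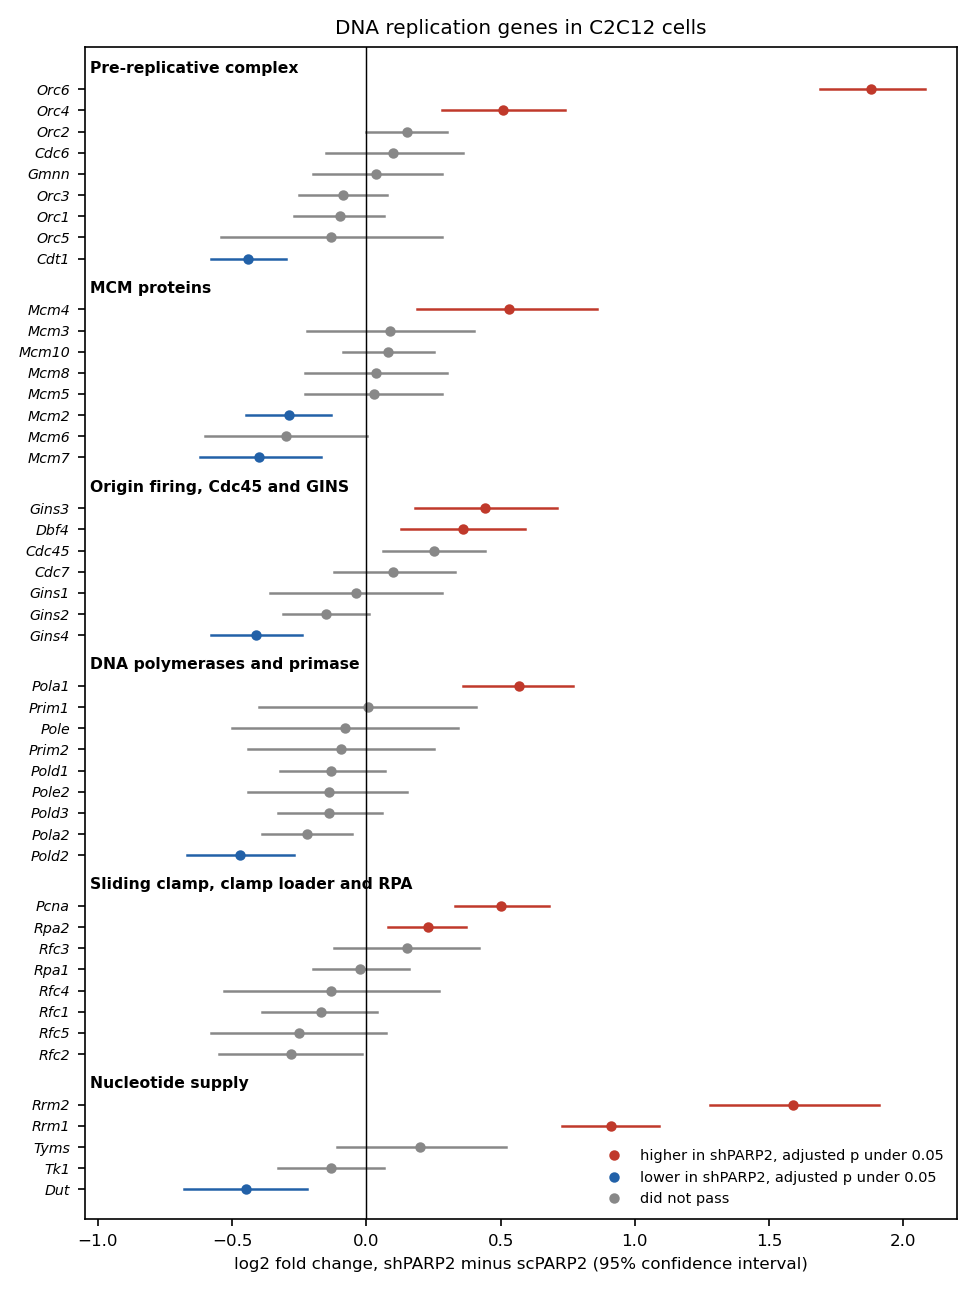
Log2 fold change, shPARP2 minus scPARP2, of each of the 46 replication genes by role (points, with 95% confidence intervals as lines, 3 arrays per line). Orc6, Rrm2 and Rrm1 stand apart at 1.88, 1.59 and 0.91, and all other changes lie between -0.47 and 0.57.

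The stretch before the start of transcription is shown for 5 of the genes that passed, to set the letters beside the values. Orc6 and Rrm2 had the largest changes and were added after their values were seen. Pola1, Gins3 and Mcm7 are the genes past the test that hold an E2F word. Each run holds the 250 bases before the annotated start (RefSeq, GRCm38.p6) from 5′ to 3′ on the gene's own strand, with capitals at E2F words and at CCAAT or its complement ATTGG.
Orc6, chr8:85299382-85299631, plus strand: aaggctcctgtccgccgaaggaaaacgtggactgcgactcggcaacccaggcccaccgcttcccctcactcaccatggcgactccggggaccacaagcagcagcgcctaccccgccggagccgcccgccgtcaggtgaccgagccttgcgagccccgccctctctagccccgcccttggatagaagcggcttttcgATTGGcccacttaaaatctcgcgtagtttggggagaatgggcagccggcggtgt
Rrm2, chr12:24708004-24708253, plus strand: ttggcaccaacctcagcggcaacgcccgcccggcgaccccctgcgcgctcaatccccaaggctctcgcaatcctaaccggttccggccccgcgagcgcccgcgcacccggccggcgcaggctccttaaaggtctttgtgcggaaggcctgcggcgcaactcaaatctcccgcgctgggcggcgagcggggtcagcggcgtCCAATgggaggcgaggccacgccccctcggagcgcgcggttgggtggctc
Pola1, chrX:93632156-93632405, minus strand: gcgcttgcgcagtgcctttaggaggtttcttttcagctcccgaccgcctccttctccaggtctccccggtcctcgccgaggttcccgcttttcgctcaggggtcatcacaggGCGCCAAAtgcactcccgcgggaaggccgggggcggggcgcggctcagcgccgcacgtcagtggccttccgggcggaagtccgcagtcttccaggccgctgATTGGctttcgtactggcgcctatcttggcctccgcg
Gins3, chr8:95633309-95633558, plus strand: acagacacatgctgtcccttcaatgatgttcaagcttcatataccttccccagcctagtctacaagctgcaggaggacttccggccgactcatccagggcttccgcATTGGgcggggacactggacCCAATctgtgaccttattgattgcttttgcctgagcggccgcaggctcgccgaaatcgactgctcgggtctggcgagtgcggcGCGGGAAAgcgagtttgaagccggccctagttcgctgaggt
Mcm7, chr5:138171884-138172133, minus strand: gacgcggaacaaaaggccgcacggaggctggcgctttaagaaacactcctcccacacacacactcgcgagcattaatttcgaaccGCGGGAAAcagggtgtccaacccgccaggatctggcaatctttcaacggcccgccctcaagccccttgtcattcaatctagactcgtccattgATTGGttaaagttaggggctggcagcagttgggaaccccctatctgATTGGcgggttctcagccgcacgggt

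Orc6 and Rrm2 each hold a single CCAAT box and no E2F word in this window. Pola1 holds the complement of TTTGGCGC 138 bases before its start, Gins3 the complement of TTTCCCGC 41 bases before, and Mcm7 the complement of TTTCCCGC 165 bases before. A second annotated start of Mcm7 has no E2F word in its window (chr5:138171267-138171516), and the window with the word is the one shown. Pola1 and Gins3 were higher and Mcm7 was lower in shPARP2 cells. The E2F words searched on both strands were TTTCCCGC, TTTGGCGC, TTTCGCGC, TTTGCCGC and TTTCCCGG, which are spellings of the same kind of site, and a gene was counted once. Of the 38 replication genes with a window, 9 (23.7%) held such a word, against 673 of 15614 genes on the arrays (4.31%). CCAAT was found in 23 of the 38 (60.5%), against 38.8% of all genes. TTTGAA, the core of the CHR element of mitotic promoters, was found in 5 (13.2%), against 15.7%. Among the replication genes, an E2F word stood in 2 of 9 that were higher, 1 of 5 that were lower and 6 of 24 that did not pass, so the word was spread over all 3 classes. CCAAT stood in 8 of 9 that were higher, 3 of 5 that were lower and 12 of 24 that did not pass. The median GC content was 61.4% in the windows of the replication genes and 56.8% in those of all genes, and a match of letters is a description and not a site of binding.

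Licensing genes held the largest change among the 46 genes. In shPARP2 cells Orc6 (probe set 10573615, chromosome 8), the smallest subunit of the origin recognition complex, had log2 signals of 10.62, 10.61 and 10.70, against 8.65, 8.88 and 8.76 in scPARP2 cells. The lines were far apart and the shPARP2 samples were nearly alike. The level was 3.69-fold higher in shPARP2 cells (log2 fold change 1.88, 95% interval 1.69 to 2.08, adjusted p = 7.57e-05), and with any single array left out the adjusted p was at most 0.00126. Orc4 (probe set 10482467), an ATPase-fold subunit of the same complex, had log2 signals of 9.75, 9.87 and 10.08 in shPARP2 cells, against 9.37, 9.42 and 9.38 in scPARP2 cells. It was 1.42-fold higher (log2 fold change 0.51, SE 0.097, adjusted p = 0.014), and the adjusted p was 0.054 to 0.0612 without any 1 of the scPARP2 arrays. The other 4 subunits of the complex did not pass, with log2 fold changes of 0.15 for Orc2, -0.088 for Orc3, -0.10 for Orc1 and -0.13 for Orc5. The samples of the lines did not overlap for Orc2 (adjusted p = 0.174), while for Orc5 the shPARP2 samples spread from 7.89 to 8.58 around scPARP2 samples of 8.28 to 8.36.

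Cdt1 (probe set 10576140, chromosome 8), which brings the Mcm ring to the origin, was lower. Its log2 signals were 9.85, 9.82 and 9.84 in shPARP2 cells, against 10.27, 10.30 and 10.26 in scPARP2 cells. Both lines were tight, and the level in shPARP2 cells was 73.9% of that in scPARP2 cells (log2 fold change -0.44, SE 0.059, adjusted p = 0.00379). With single arrays left out the adjusted p was at most 0.0283. Cdc6, the loading ATPase, and Gmnn, the inhibitor of Cdt1, did not pass (log2 fold changes 0.10 and 0.037, adjusted p = 0.614 and 0.864). Gmnn and Orc1 are among the dim probe sets, with signal percentiles of 22.9 and 37.8 among all probe sets, which limits what these arrays can show of them.

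In the Mcm2 to Mcm7 helicase 1 subunit was higher, 2 were lower and 3 did not pass. Mcm4 (probe set 10437945) had log2 signals of 8.79, 9.25 and 8.76 in shPARP2 cells, against 8.45, 8.37 and 8.39 in scPARP2 cells. It was 1.44-fold higher (log2 fold change 0.53, SE 0.14, adjusted p = 0.0452), with shPARP2 array 2 well above the other shPARP2 arrays. Mcm7 (probe set 10534974) had log2 signals of 9.17, 9.44 and 9.40 in shPARP2 cells, against 9.66, 9.81 and 9.73 in scPARP2 cells, and was lower at 75.9% of the scPARP2 level (log2 fold change -0.40, SE 0.093, adjusted p = 0.0295). Mcm2 (probe set 10546163) had log2 signals of 9.45, 9.56 and 9.51 in shPARP2 cells, against 9.74, 9.82 and 9.83 in scPARP2 cells, and was lower at 81.9% (log2 fold change -0.29, SE 0.066, adjusted p = 0.0276). None of these calls was firm: without shPARP2 array 1 or any 1 scPARP2 array the adjusted p was 0.0655 to 0.137 for Mcm4, 0.0584 to 0.114 for Mcm7 and 0.0745 to 0.129 for Mcm2, and centring the arrays on their medians gave 0.073 for Mcm4, 0.0607 for Mcm7 and 0.0795 for Mcm2.

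Mcm6, Mcm3 and Mcm5 complete the ring. Mcm6 had log2 signals of 8.20, 8.58 and 8.13 in shPARP2 cells, against 8.56, 8.63 and 8.62 in scPARP2 cells (log2 fold change -0.30, adjusted p = 0.17). Without shPARP2 array 2 its log2 fold change was -0.44 with an adjusted p of 0.00896, so this array decided the call. Mcm5 had a log2 fold change of 0.027 with a 95% interval of -0.23 to 0.28, and Mcm3 one of 0.089 (adjusted p = 0.731). Mcm8, a relative used in recombination repair, and Mcm10, which helps to activate the helicase, had log2 fold changes of 0.036 and 0.081 and did not pass.

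**Figure D2:**
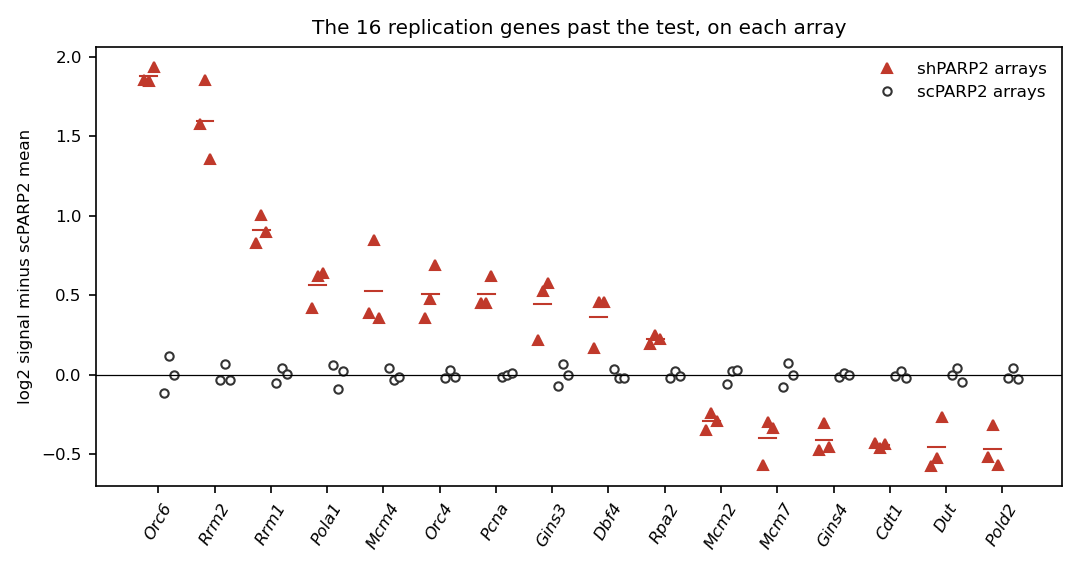
Log2 signal minus the scPARP2 mean (vertical axis) of the 16 replication genes past the test, with filled triangles for the 3 shPARP2 arrays, open circles for the 3 scPARP2 arrays and bars for the shPARP2 mean. The shPARP2 arrays lie clear of the scPARP2 arrays in all 16, and for Mcm4 a single shPARP2 array stands above the other two.

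Origin firing genes also split by subunit. Dbf4 (probe set 10528077), the regulatory subunit that activates the Cdc7 kinase, had log2 signals of 9.41, 9.70 and 9.70 in shPARP2 cells, against 9.28, 9.22 and 9.22 in scPARP2 cells. It was 1.28-fold higher (log2 fold change 0.36, SE 0.095, adjusted p = 0.0447), and without shPARP2 array 2 or 3 or any 1 scPARP2 array the adjusted p was 0.0911 to 0.148. Its catalytic partner Cdc7, read by a dim probe set, had a log2 fold change of 0.10 (adjusted p = 0.562). Cdc45, the partner of the ring in the moving helicase, had log2 signals of 8.01, 8.20 and 8.08 in shPARP2 cells, against 7.76, 7.85 and 7.91 in scPARP2 cells. The lines did not overlap, yet the adjusted p was 0.0768 (log2 fold change 0.25), and it was 0.0449 after quantile normalization of the arrays.

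The GINS complex has 4 subunits, of which 1 was higher, 1 was lower and the others did not pass. Gins3 (probe set 10574378) had log2 signals of 8.19, 8.50 and 8.55 in shPARP2 cells, against 7.90, 8.04 and 7.97 in scPARP2 cells, and was 1.36-fold higher (log2 fold change 0.44, SE 0.11, adjusted p = 0.0362). Gins4 (probe set 10577623) had log2 signals of 9.83, 10.00 and 9.85 in shPARP2 cells, against 10.29, 10.31 and 10.30 in scPARP2 cells, and was lower at 75.4% (log2 fold change -0.41, SE 0.07, adjusted p = 0.00981). The Gins4 call missed the threshold without scPARP2 array 2 or 3 (0.0512 to 0.0533), and the Gins3 call without shPARP2 array 2 or 3 or any 1 scPARP2 array (0.0824 to 0.128). Gins2 had log2 signals of 8.31, 8.21 and 8.23 in shPARP2 cells, against 8.34, 8.41 and 8.44 in scPARP2 cells, which do not overlap (log2 fold change -0.15, adjusted p = 0.192). Gins1 had a log2 fold change of -0.037.

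Subunits of the same complex that moved apart were compared directly, in 3 pairs chosen after their values were seen. The Mcm4 minus Mcm2 difference, with each gene set against its own scPARP2 mean, was 0.73, 1.08 and 0.64 in shPARP2 cells and 0.10, -0.06 and -0.05 in scPARP2 cells. The Mcm4 minus Mcm7 difference was 0.94, 1.14 and 0.69 in shPARP2 cells and 0.12, -0.11 and -0.01 in scPARP2 cells. The Gins3 minus Gins4 difference was 0.69, 0.83 and 1.03 in shPARP2 cells and -0.06, 0.06 and -0.01 in scPARP2 cells. All 3 differences lay apart in the lines, by 0.81, 0.92 and 0.85 log2 units. Each pair joined a gene called higher with a gene called lower, and the lines overlapped in neither gene. The separation was therefore fixed by the choice of pairs. So was the two-sided exact permutation p, which was 0.1 for each before and after adjustment over the 3 pairs. This is the smallest that 3 arrays against 3 can give, and it adds no support.

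Among the polymerases, the catalytic subunit of the starter enzyme and a subunit of polymerase delta moved in opposite directions. Pola1 (probe set 10605674, chromosome X), the catalytic subunit of polymerase alpha, had log2 signals of 8.13, 8.33 and 8.35 in shPARP2 cells, against 7.77, 7.62 and 7.73 in scPARP2 cells. It was 1.48-fold higher (log2 fold change 0.57, SE 0.087, adjusted p = 0.00642), and with single arrays left out the adjusted p was at most 0.0346. Its accessory subunit Pola2 had log2 signals of 8.27, 8.43 and 8.28 in shPARP2 cells, against 8.57, 8.54 and 8.55 in scPARP2 cells (log2 fold change -0.22, adjusted p = 0.0808). The Pola2 values do not overlap, and without shPARP2 array 2 the adjusted p was 0.0251. The primase subunits Prim1 and Prim2 had log2 fold changes of 0.0057 and -0.094 with adjusted p of 0.989 and 0.747.

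Pold2 (probe set 10384032), the second subunit of polymerase delta, had log2 signals of 10.76, 10.96 and 10.71 in shPARP2 cells, against 11.26, 11.32 and 11.25 in scPARP2 cells. It was lower at 72.2% of the scPARP2 level (log2 fold change -0.47, SE 0.084, adjusted p = 0.0113), the most negative change of the 46 genes, and the adjusted p was 0.0558 without scPARP2 array 2. The catalytic subunit Pold1 and the Pcna-binding subunit Pold3 had log2 fold changes of -0.13 and -0.14 and did not pass. Polymerase epsilon, which copies the leading strand, did not pass in either of its subunits among the 46 genes. Its limma adjusted p was 0.83 for Pole and 0.524 for Pole2, and neither p was under 0.05 before adjustment. Pole, its catalytic subunit, had log2 signals of 7.26, 7.76 and 7.07 in shPARP2 cells, against 7.41, 7.40 and 7.51 in scPARP2 cells, so shPARP2 samples lay on both sides of the scPARP2 samples. Pole2 likewise had shPARP2 samples on both sides, with a log2 fold change of -0.14. Outside the 46 genes, the epsilon subunits Pole3 and Pole4 had log2 fold changes of 0.14 and -0.004. The delta subunit Pold4 had 0.27, and none of these passed.

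The sliding clamp was higher while none of its loader subunits passed. Pcna (probe set 10487930), the ring that tethers polymerases to DNA, had log2 signals of 12.24, 12.24 and 12.41 in shPARP2 cells, against 11.78, 11.79 and 11.80 in scPARP2 cells. It was 1.42-fold higher (log2 fold change 0.50, SE 0.073, adjusted p = 0.0051), and with single arrays left out the adjusted p was at most 0.0311. A second probe set named for Pcna (10461391) gave 12.22, 12.24 and 12.41 in shPARP2 cells, against 11.78, 11.79 and 11.80 in scPARP2 cells. RefSeq lists the pseudogenes Pcna-ps1 on chromosome X and Pcna-ps2 on chromosome 19, so the signal may be shared between near copies and its source is uncertain. The 5 clamp loader subunits had log2 fold changes of -0.17 for Rfc1, -0.28 for Rfc2, 0.15 for Rfc3, -0.13 for Rfc4 and -0.25 for Rfc5. The smallest adjusted p among them was that of Rfc2, with log2 signals of 7.42, 7.62 and 7.22 in shPARP2 cells, against 7.67, 7.68 and 7.76 in scPARP2 cells (adjusted p = 0.143, and 0.0321 without shPARP2 array 2), the only 1 of the 5 with an unadjusted limma p under 0.05 (0.0395).

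Replication protein A coats single-stranded DNA at the fork and has 3 subunits. Rpa2 (probe set 10508759) had log2 signals of 8.69, 8.75 and 8.72 in shPARP2 cells, against 8.48, 8.52 and 8.49 in scPARP2 cells, and was 1.17-fold higher (log2 fold change 0.23, SE 0.06, adjusted p = 0.0451). This was the smallest change that passed among the 46 genes, and leaving out any single array gave an adjusted p of 0.0569 to 0.179. The large subunit Rpa1 had a log2 fold change of -0.022 (adjusted p = 0.896). Rpa3, the smallest subunit, is not among the 46 genes and had log2 signals of 8.67, 9.05 and 8.79 in shPARP2 cells, against 9.32, 9.49 and 9.39 in scPARP2 cells. It was lower at 67.8% (log2 fold change -0.56, SE 0.11, adjusted p = 0.0164, and 0.0642 to 0.0694 without scPARP2 array 2 or 3), so by these probe sets the subunits of this complex too differed in direction. A further probe set that names Rpa3 alone was not read here.

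Both subunits of ribonucleotide reductase, which turns ribonucleotides into deoxyribonucleotides and sets the pace of DNA precursor supply, were higher. Rrm2 (probe set 10394978, chromosome 12), the small subunit that carries the tyrosyl radical and is normally limited to S phase, had log2 signals of 10.46, 10.74 and 10.24 in shPARP2 cells, against 8.85, 8.95 and 8.85 in scPARP2 cells. It was 3.02-fold higher (log2 fold change 1.59, 95% interval 1.28 to 1.91, adjusted p = 0.000665). Rrm1 (probe set 10555695, chromosome 7), the large catalytic subunit, had log2 signals of 10.48, 10.66 and 10.55 in shPARP2 cells, against 9.60, 9.70 and 9.66 in scPARP2 cells, and was 1.88-fold higher (log2 fold change 0.91, 95% interval 0.73 to 1.09, adjusted p = 0.000638). Neither call depended on a single array, since the adjusted p without each array in turn was at most 0.00588 for Rrm2 and 0.00654 for Rrm1. Rrm2b, the alternative small subunit induced by p53 and not among the 46 genes, had log2 signals of 9.85, 9.89 and 10.20 in shPARP2 cells, against 8.88, 9.14 and 9.09 in scPARP2 cells. It was 1.92-fold higher (log2 fold change 0.94, SE 0.12, adjusted p = 0.00337), so all 3 reductase genes were higher in shPARP2 cells.

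The thymidylate branch did not follow the reductase. Dut (probe set 10475610), the dUTPase that keeps uracil out of DNA, had log2 signals of 8.45, 8.50 and 8.76 in shPARP2 cells, against 9.02, 9.07 and 8.98 in scPARP2 cells. It was lower at 73.1% (log2 fold change -0.45, SE 0.096, adjusted p = 0.0207), and the adjusted p was 0.0631 to 0.0843 without shPARP2 array 1 or any 1 scPARP2 array. Tyms, thymidylate synthase, had log2 signals of 8.70, 9.17 and 8.90 in shPARP2 cells, against 8.63, 8.83 and 8.69 in scPARP2 cells, which overlap (log2 fold change 0.20, adjusted p = 0.384). RefSeq lists a pseudogene of it, Tyms-ps, on chromosome 10. Tk1, the salvage kinase for thymidine, had a log2 fold change of -0.13 (adjusted p = 0.365) and one of -0.30 in its second probe set (adjusted p = 0.295).

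The shPARP2 samples differed among themselves more than the scPARP2 samples did. The range over the 3 arrays of a replication gene had a median of 0.26 in shPARP2 cells and 0.10 in scPARP2 cells, and it was wider in shPARP2 cells for 41 of the 46 (89.1%, against 78.4% of all genes). The shPARP2 array 2 gave the highest shPARP2 value in 35 of the 46 genes (76.1%, against 34.3% of all genes), and shPARP2 array 3 the lowest in 20 (43.5%, against 27.7%). Both held in 19 of the 46 genes (41.3%, against 20.7% of all genes) and in 16 of the 30 that did not pass. The same order held in 26 of 30 mitosis genes (86.7%), in 11 of 12 markers of differentiating muscle (91.7%) and in 6 of 7 myoblast markers (85.7%), so it was not particular to the cell cycle. In the mitosis genes the median range was 0.66 in shPARP2 cells and 0.11 in scPARP2 cells. The median over the 46 genes of the difference from the scPARP2 mean was -0.084, 0.17 and -0.12 on the shPARP2 arrays and -0.03, 0.032 and -0.004 on the scPARP2 arrays. For all genes it was 0.012, -0.078 and 0.011 on the shPARP2 arrays, so array 2 was the highest shPARP2 array for the replication genes and the lowest for the arrays as a whole. Orc5, Prim1, Pole and Rfc4 show the pattern most plainly, with Rfc4 at 9.25, 9.66 and 9.02 in shPARP2 cells, against 9.38, 9.53 and 9.40 in scPARP2 cells. The part of this spread in the calls and in their absence was not tested beyond leaving out arrays.

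**Figure D3:**
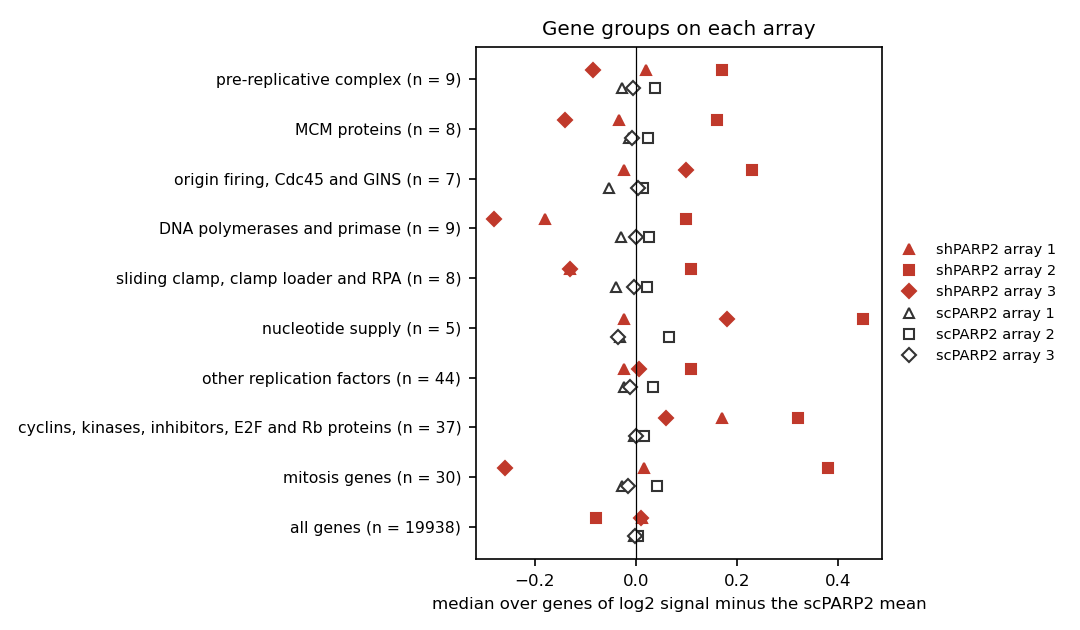
Median over the genes of a group of the log2 signal minus the scPARP2 mean (horizontal axis), for each of the 3 shPARP2 arrays (filled) and the 3 scPARP2 arrays (open), by gene group. The shPARP2 array 2 lies highest in every replication group and in the mitosis genes, at 0.38 there against -0.26 for array 3, and lowest for all genes.

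Other factors of replication were read from a list with 44 measured genes, such as the fork protection, flap removal, alternative clamp loader, histone chaperone and nucleotide salvage genes. Of these, 4 were higher and 5 were lower, which is 20.5% called against 24.0% of all genes, and the median log2 fold change was 0.017. Asf1b, a histone chaperone that hands new histones to the fork, had log2 signals of 10.01, 10.25 and 9.48 in shPARP2 cells, against 8.82, 8.86 and 8.86 in scPARP2 cells. It was 2.1-fold higher (log2 fold change 1.07, SE 0.19, adjusted p = 0.0106). Chtf8, a subunit of the alternative Ctf18 clamp loader, had log2 signals of 9.68, 9.70 and 9.54 in shPARP2 cells, against 10.19, 10.16 and 10.14 in scPARP2 cells, and was lower at 69.5% (log2 fold change -0.53, SE 0.07, adjusted p = 0.00362). With Rrm2b and Rpa3, these had the largest changes among the genes of the list past the test. The other calls, named after their values were seen, were higher Mtbp (log2 fold change 0.49) and Dck (0.31) and lower Fen1 (-0.50), Dctd (-0.42) and Dna2 (-0.30).

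**Figure D4:**
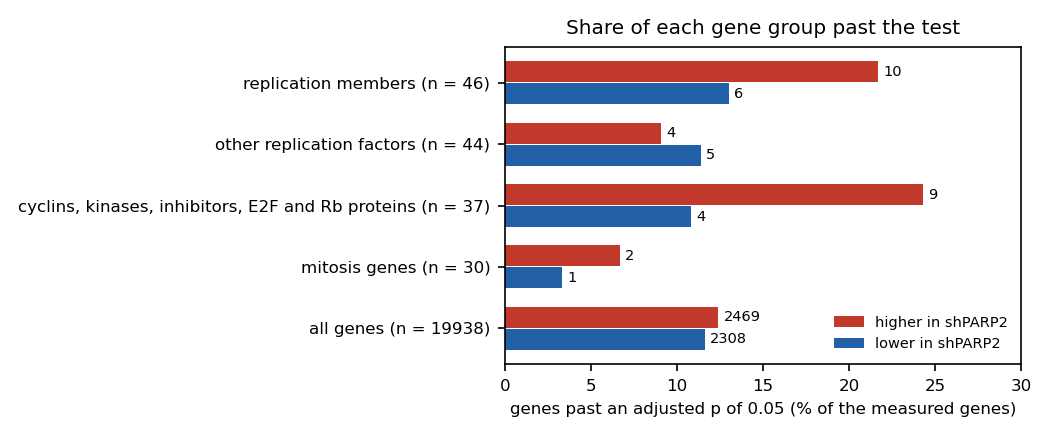
Share of the measured genes of each group past an adjusted p of 0.05 (horizontal axis, percent), upper bars for genes higher and lower bars for genes lower in shPARP2 cells, with the number of genes at each bar. The replication genes stand at 21.7% higher and 13% lower, the cyclins, kinases and E2F proteins at 24.3% and 10.8%, and the mitosis genes at 6.67% and 3.33%, against 12.4% and 11.6% of all genes. Without probe sets below signal percentile 40, not drawn here, the shares called were 41.9% of replication genes and 41.5% of all genes. The share of the cyclins, kinases and E2F proteins in that fit is not given here.

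The regulators of S phase entry and the mitosis genes were read beside the replication genes. Of 37 cyclins, kinases, inhibitors, E2F and Rb proteins measured, 9 were higher and 4 were lower (35.1%, against 24.0% of all genes), with a median log2 fold change of 0.13. Ccne2, the cyclin E2 that activates Cdk2 at the start of S phase, had log2 signals of 7.02, 7.53 and 7.43 in shPARP2 cells, against 6.46, 6.64 and 6.28 in scPARP2 cells, and was 1.82-fold higher (log2 fold change 0.87, SE 0.16, adjusted p = 0.0122). The D-type cyclin Ccnd2 had log2 signals of 10.21, 10.11 and 10.30 in shPARP2 cells, against 9.37, 9.50 and 9.45 in scPARP2 cells, and was 1.7-fold higher (log2 fold change 0.76, SE 0.077, adjusted p = 0.00141). Ccnd3, a further D-type cyclin, was higher as well (log2 fold change 0.66, adjusted p = 0.0262, and 0.0769 to 0.0914 without shPARP2 array 1 or any 1 scPARP2 array). E2f5, a repressive E2F, was lower (log2 fold change -0.68, adjusted p = 0.0132, and 0.0544 to 0.057 without scPARP2 array 1 or 2). Cdkn1a, the p21 inhibitor that also binds Pcna, was not analysed here.

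Of the 30 mitosis genes 2 were higher and 1 was lower (10%, against 24.0% of all genes), with a median log2 fold change of 0.031. Pttg1, the securin that holds back chromosome separation, had log2 signals of 8.44, 8.69 and 8.34 in shPARP2 cells, against 9.05, 9.12 and 9.11 in scPARP2 cells, and was lower at 65.7% (log2 fold change -0.61, SE 0.10, adjusted p = 0.00868). Incenp, a subunit of the chromosomal passenger complex, and Bub3, of the spindle checkpoint, were higher (log2 fold changes 0.33 and 0.24, adjusted p = 0.0376 and 0.0426). The Incenp call was lost without any single array (0.0506 to 0.152), and the Bub3 call without any array but shPARP2 array 2 (0.0685 to 0.166). Without shPARP2 array 2 the list counted 7 genes lower, against 1 with all arrays, so the count rested on that array. Ccnb1 was not analysed here.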

How the data were processed

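Total RNA of 6 samples was hybridized to Affymetrix Mouse Gene 1.0 ST arrays, 1 array per sample. The authors of the arrays deposited log2 expression values of 35556 probe sets made with RMA, per the labels' processing notes, with version and annotation not given in the sources used here. RMA brings the arrays close to a common distribution, so a shift shared by all genes would not be seen. A linear model with line as its only term was fitted to every probe set (limma 3.58.1, R 4.3.3, moderated by eBayes), the approach the article describes, and p-values were adjusted by Benjamini-Hochberg across the whole table at a threshold of 0.05. A gene was read from the brightest (mean of 6 arrays) of the 21789 probe sets whose platform annotation names a single gene, which gave 19938 genes; 1621 probe sets name several genes and 12146 are unnamed here. All 46 replication genes carry their current RefSeq symbol. The fit was tested on simulated data. Arrays have no read depth, and their number limits the precision.

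Values on every array are given for replication genes past the test. In the other lists up to 4 genes with the largest change past the test were taken, unless the text says otherwise. Of these, Ccnd3, E2f5, Incenp and Bub3 are given by log2 fold change and adjusted p only. Members and lists were chosen with earlier results of these data known, so no list was tested as a set. Whether same-numbered samples of the lines were prepared together is not stated. Their deviations from the line means showed little correlation (-0.0507, 0.0925 and 0.0113), which cannot settle it. Alternatives covered scaling, filters, variance model, array weights, a replicate block and each array left out; those on the named genes outside the 46 were added after seeing the data. Promoter windows of 38 of the 46 genes were those of RefSeq (GRCm38.p6), cut to the 250 bases before the start.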

Additional observations from a re-analysis of the deposited data

How the results depend on the processing

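None of the 16 replication genes past the test changed direction in the alternatives run, and 11 that did not pass changed sign in at least 1. Of the 16, 6 passed in all 14 alternatives and 10 missed the threshold in at least 1, and of the 30 others 26 passed in none and Mcm6, Cdc45, Pola2 and Rfc2 passed in at least 1. The counts of replication genes, 10 higher and 6 lower, were 5 and 2 at an adjusted p under 0.01 and 3 and 0 with a fold minimum of 1.5, and 5 to 8 higher and 1 to 9 lower with single arrays left out. They were 11 and 6 after quantile normalization, 7 and 4 after centring on the array medians, and 8 and 9 with array weights. For the other replication factors, 4 higher and 5 lower, the counts were 2 and 1 at 0.01, 2 and 0 with the fold minimum, 3 to 4 and 1 to 5 with single arrays left out, and for lower genes 2 after centring and 8 with array weights. Over all genes, 2469 higher and 2308 lower, they were 1352 and 1228 at 0.01, 1051 and 961 with the fold minimum, and 1390 to 2448 and 1281 to 2721 with single arrays left out. With single arrays left out the cyclin, kinase and E2F list gave 5 to 11 higher and 1 to 5 lower, and the mitosis list 0 to 4 higher and 1 to 7 lower.

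By their deviations, 2 of 6 arrays lay closest to the array of the other line with their own number, which does not settle whether the samples were paired. With the replicate block, 7 replication genes were higher and 4 lower, 3 other factors were higher and 3 lower, and 1790 and 1660 of all genes passed.

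None of the 11 genes that changed sign passed in any alternative. With single arrays left out they ran from -0.037 to 0.20 for Mcm3, -0.07 to 0.12 for Mcm5, -0.073 to 0.096 for Mcm8, -0.32 to 0.027 for Orc5, -0.033 to 0.11 for Gmnn and -0.13 to 0.088 for Gins1. They ran from -0.18 to 0.15 for Prim1, -0.25 to 0.02 for Prim2, -0.28 to 0.067 for Pole, -0.31 to 0.017 for Rfc4 and -0.052 to 0.034 for Rpa1. Array weights gave -0.016 for Mcm8 and -0.064 for Prim1.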
